A study of Rattus norvegicus with 65 samples.

Results

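The endoplasmic reticulum (ER) stress genes described here are 10 genes of the unfolded protein response, taken as a list of symbols and not by their values: Hspa5, Hsp90b1, Pdia4, Dnajb9, Sdf2l1, Creld2, Manf, Herpud1, Xbp1 and Ddit3. Earlier results of these data were known when the list was chosen. All 10 were found among the 14554 genes of the table, from which the filter on low counts removed none. RNA came from primary cultures of heart muscle cells (cardiomyocytes) of newborn rats, treated for 6 or 24 hours with 10 mM 5FU (5-fluorouracil), 2.5 mM Ace (acetaminophen) or 1.25 μM Dox (doxorubicin). Wells with solvent alone were the controls at both times, named DMSO1 (1% DMSO, the level used with 5FU) and DMSO2 (0.25%, the level used with Ace and Dox). The 65 libraries fell into 10 groups, with 6 libraries each for 5FU and DMSO1 at both times and for Ace at 6 hours, and 7 for each other group. Every culture was starved of serum overnight before treatment. Hearts of more than 1 litter went into a common pool of cells before plating, so replicates are wells of 1 pool, and p-values measure the spread between wells and not between animals. Each drug was used at 1 dose, and the doses differed between drugs.

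The ER folds membrane and secreted proteins. When unfolded proteins accumulate there, the membrane sensors IRE1 (Ern1), PERK (Eif2ak3) and ATF6 release the chaperone BiP and start 3 branches of a shared response: IRE1 splices the mRNA of Xbp1 into that of an active transcription factor, ATF6 is cut by proteases of the Golgi and enters the nucleus, and PERK slows translation in general and favours that of Atf4. In heart muscle, which renews a large mass of membrane proteins and calcium pumps, the response is known to raise chaperones, and long stress to raise the death-promoting factor CHOP (Ddit3). Among the 10 genes, Hspa5 encodes BiP itself, Hsp90b1 the chaperone GRP94 and Pdia4 a disulfide isomerase. Dnajb9, Sdf2l1, Creld2 and Manf encode partners or cofactors of folding in the ER lumen, Herpud1 a membrane protein of ER-associated degradation, and Xbp1 and Ddit3 transcription factors. The counts are summed per gene, so the spliced and unspliced forms of Xbp1 cannot be told apart.

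The promoters are shown because the elements by which ATF6 and XBP1 are known to act are short and can be read directly. RefSeq windows of the assembly GRCr8, from 250 bases before to 50 after an annotated start site, were at hand for 9 of the 10 genes, all but Manf. For Herpud1, Dnajb9 and Creld2 the start site of the window was not the end of the annotated gene but that of another transcript. Each window was searched on both strands for the ER stress response element (ERSE, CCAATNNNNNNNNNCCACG), its second form (ERSE-II, ATTGGNCCACG), the core of the unfolded protein response element (TGACGTGG) and the C/EBP-ATF response element (TGATGNAAT). ERSE and ERSE-II share the letters CCACG, whose reverse complement ends the core of the unfolded protein response element, so matches of these could overlap. The stretches of 5 genes that hold an element are given 5′ to 3′ on the strand of the gene, upstream of the start site, with the element in capitals. Hspa5, Xbp1 and Creld2 lie on the plus strand, and Hsp90b1 and Herpud1 on the minus strand.
Hspa5 ERSE, chr3:38452943-38453015: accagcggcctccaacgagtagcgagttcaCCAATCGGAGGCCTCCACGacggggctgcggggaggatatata
Hsp90b1 distal ERSE, chr7:23012421-23012499: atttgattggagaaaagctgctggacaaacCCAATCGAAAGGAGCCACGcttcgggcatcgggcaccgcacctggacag
Hsp90b1 proximal ERSE, chr7:23012317-23012395: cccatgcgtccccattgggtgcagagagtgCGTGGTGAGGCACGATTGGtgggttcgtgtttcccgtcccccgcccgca
Xbp1 ERSE, chr14:84604528-84604606: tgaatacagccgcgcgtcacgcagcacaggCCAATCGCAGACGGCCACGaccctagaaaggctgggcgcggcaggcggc
Herpud1 ERSE-II, chr19:10614791-10614861: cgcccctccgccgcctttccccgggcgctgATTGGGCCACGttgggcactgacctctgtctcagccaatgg
Creld2 ERSE, chr7:121789209-121789287: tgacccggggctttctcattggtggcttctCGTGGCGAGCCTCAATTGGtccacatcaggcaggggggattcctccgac
Hspa5, Hsp90b1, Xbp1 and Creld2 held an ERSE, 4 of 9 windows, and Hsp90b1 held it at 2 places, whereas 0.148% of the 12818 windows of tested genes held one. Herpud1 held the ERSE-II, found in 0.078% of those windows. The proximal element of Hsp90b1 and that of Creld2 matched on the strand opposite to the gene. None of the 9 windows held the core of the unfolded protein response element (0.843% of windows of tested genes) or the C/EBP-ATF response element (0.499%). The windows of Pdia4, Ddit3, Dnajb9 and Sdf2l1 held none of the 4 elements in these exact letters. Such matches describe the sequence and do not show that a factor was bound.

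**Figure D1:**
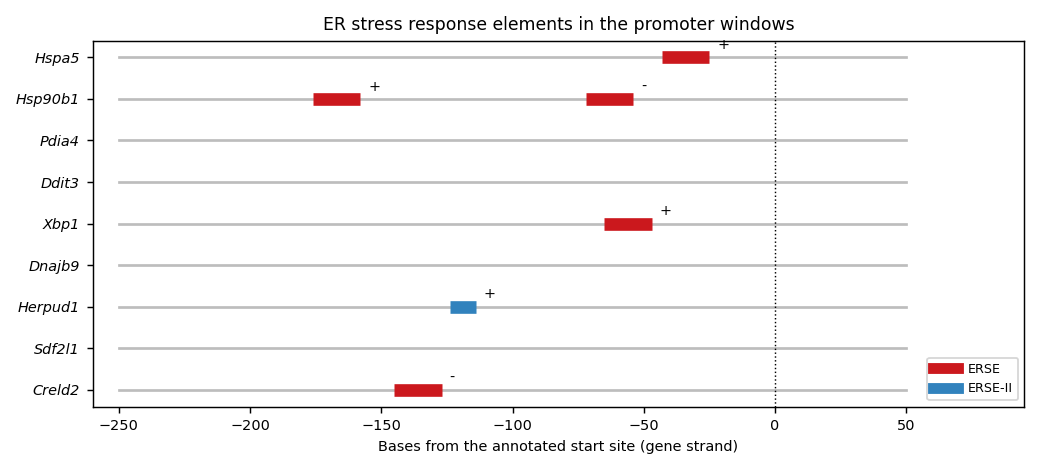
Position of the ERSE (red) and ERSE-II (blue) in the 9 promoter windows, in bases from the annotated start site (0). The element of Hspa5 lies from -43 to -25 and that of Xbp1 from -65 to -47, and the windows of Pdia4, Ddit3, Dnajb9 and Sdf2l1 are empty.

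Library totals ran from 14332827 to 25738297 estimated counts, and the lowest count of any of the 10 genes in any library was 79, for Sdf2l1. Levels are given as counts per 1e6 reads (CPM), scaled with TMM factors, and a gene was called changed at a false discovery rate (FDR) below 0.01 over all 14554 genes. Since CPM is not per length, levels are compared between groups and not between genes. Of 10 cardiomyocyte markers 9 were measured, all of them above 1 CPM, and they summed to 16070 to 58620 CPM. Fibroblast markers summed to 1969 to 20010 CPM, so the cultures were not of 1 cell type. In all, 3 libraries stood apart in ways that touch these genes. Library 1 of DMSO1 at 24 hours lay 0.401 of the way from the other controls to the 5FU libraries over 1490 genes that differed between these groups with a log2 fold change of 1 or more in size, while the other 5 controls lay at -0.0917 to -0.0612. Library 1 of 5FU at 6 hours lay at 1.14 of the way over 877 such genes, while the other 5 lay at 0.943 to 0.962. Library 7 of Ace at 24 hours lay at 0.759 over 891 such genes, and the other 6 at 0.962 to 1.09. Results that rest on these libraries are given with and without them.

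In 5FU at 24 hours all 10 ER stress genes fell against their control, DMSO1, where 55.8% of all genes were called, 28% higher and 27.8% lower. The libraries of 8 of the 10 lay wholly below the controls, as did 20.6% of all genes (42.9% did not overlap in either direction). The median log2 fold change of the 10 was -0.76, and that of all genes -0.01. In these whole cultures, fewer cells of a type and less RNA per cell cannot be told apart.

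Sdf2l1, a component of a BiP co-chaperone complex, fell most. It ran from 3.97 to 6.03 CPM (median 5.34) in 5FU and from 6.91 to 19.7 CPM (median 16.04) in DMSO1, so the groups did not overlap, although the lowest control, library 1, lay close to the drug libraries. Its log2 fold change was -1.48 (SE 0.14, FDR 9.34e-15), and -1.63 without that library. Xbp1 ran from 29.3 to 32.8 CPM (median 31.5) against 46.4 to 83.8 CPM (median 75.5) and fell by 56.2% (log2 fold change -1.19, SE 0.07, FDR 2.61e-22). Its lowest level among the 10 groups was that of 5FU at 24 hours. Library 1 was the lowest control for Xbp1 too, and without it the log2 fold change was -1.29. Dnajb9, a J-domain protein that recruits BiP to its clients and to IRE1, ran from 26.5 to 29.2 CPM (median 27.1) against 41.1 to 55.8 CPM (median 52.1), with a log2 fold change of -0.88 (SE 0.09, FDR 7.09e-14).

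The chaperone genes also fell. Hspa5 ran from 461 to 495 CPM (median 482) in 5FU and from 610 to 886 CPM (median 865) in DMSO1, and fell by 41.9% (log2 fold change -0.78, SE 0.07, FDR 3.07e-14). Hsp90b1 ran from 291 to 313 CPM (median 301) against 374 to 560.3 CPM (median 527) and fell by 40.2% (FDR 3.28e-18). Manf, a factor that binds BiP and can be secreted, ran from 49.04 to 57.2 CPM (median 54.04) against 69.2 to 104 CPM (median 96.9) and fell by 42.4% (FDR 1.81e-17). In each of these 3 genes the lowest control was library 1. Without it the log2 fold change was -0.86 for Hspa5, -0.82 for Hsp90b1 and -0.87 for Manf. Pdia4 ran from 80.9 to 85.7 CPM (median 81.9) against 91.5 to 137 CPM (median 131) and fell by 34.1% (FDR 1.27e-11). Library 1 was its lowest control as well, and without it the log2 fold change was -0.68.

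Herpud1, Ddit3 and Creld2 fell least. Herpud1 ran from 93.3 to 103 CPM (median 98.1) against 109 to 128 CPM (median 123), a log2 fold change of -0.31 (FDR 0.000104). Ddit3 ran from 32.7 to 36.1 CPM (median 34.1) against 36.1 to 48.05 CPM (median 42.1), a log2 fold change of -0.29 (FDR 0.000585). Creld2, an ER protein with disulfide isomerase activity, ran from 23.9 to 27.5 CPM (median 25.3) against 25.3 to 34.2 CPM (median 30.8), a log2 fold change of -0.25 (FDR 0.000717). The groups overlapped for Ddit3 and Creld2. Library 1 of DMSO1 was the lowest control for Herpud1 as well. Without that library the value was -0.34 for Herpud1, -0.24 for Ddit3, -0.30 for Creld2 and -0.93 for Dnajb9. Leaving out any 1 library kept all 10 calls.

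**Figure D2:**
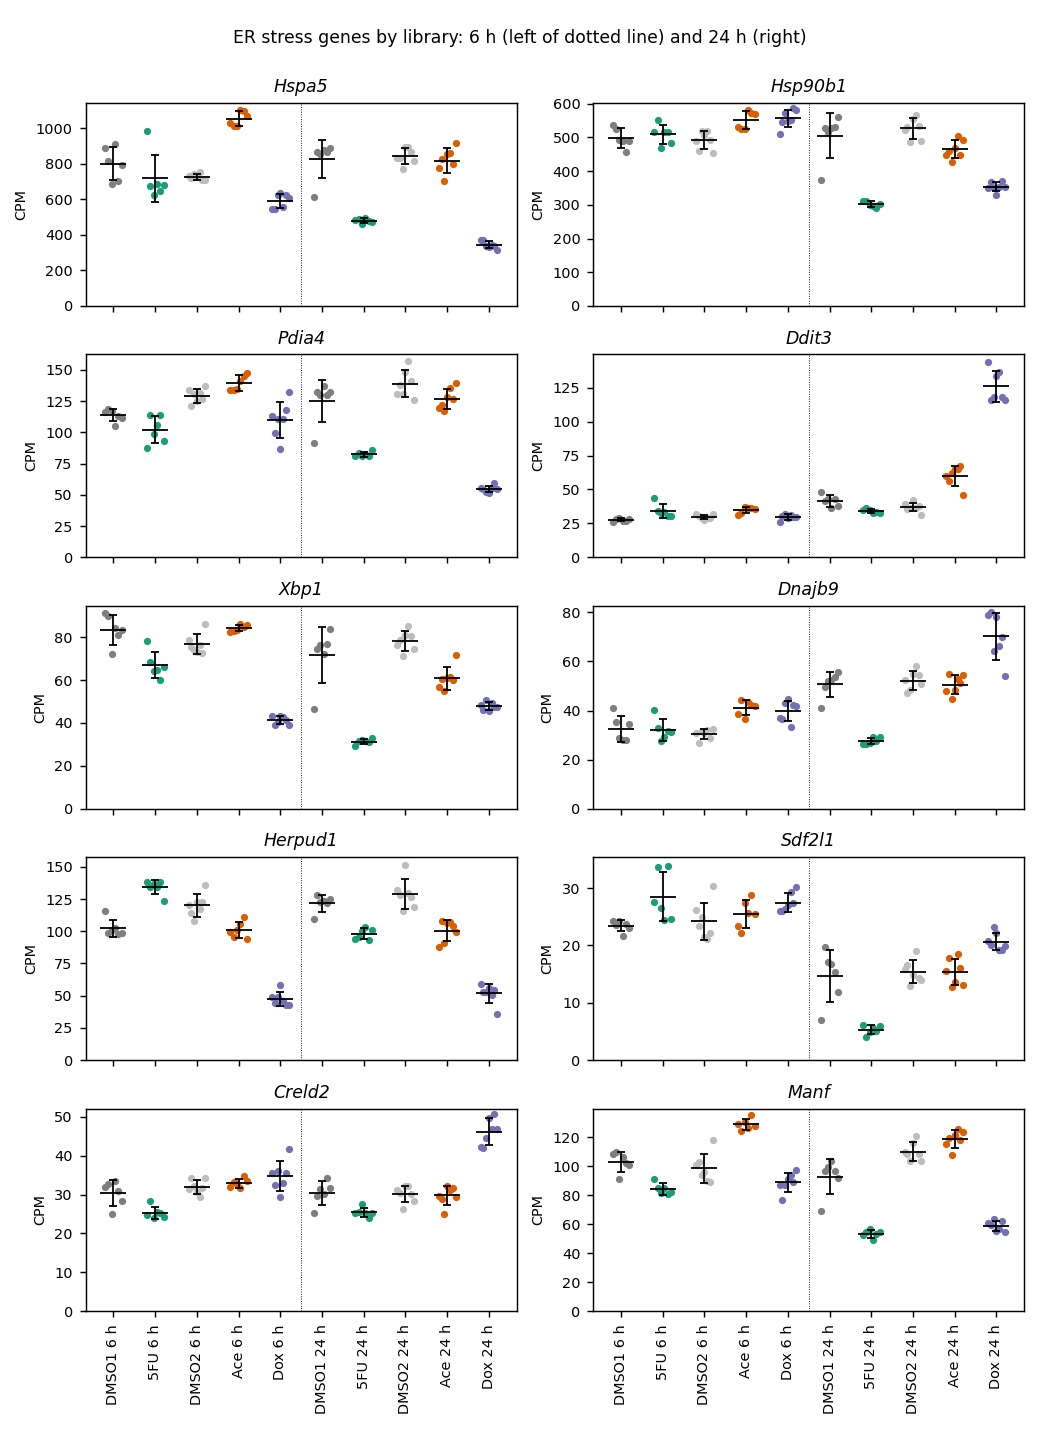
CPM of each gene in every library (points) of the 10 groups, with the group mean and SD (black), for 6 hours left and 24 hours right of the dotted line. At 24 hours Hspa5 lies at 461 to 495 CPM in 5FU and 317 to 370.4 in Dox, below all controls, whereas Ddit3 reaches 116 to 144 CPM in Dox; 1 control library of DMSO1 at 24 hours lies low in several panels.

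At 6 hours of 5FU the genes moved in both directions and by less. Of the 10, 2 rose, 3 fell and 5 did not pass the test, where 47.9% of all genes were called, 23.4% higher and 24.5% lower. Herpud1 ran from 124 to 139 CPM (median 136) against 97.8 to 116 CPM (median 99.7) in DMSO1, a rise of 31.3% (log2 fold change 0.39, SE 0.07, FDR 2.57e-06). Ddit3 ran from 30.4 to 44.03 CPM (median 32.8) against 26.1 to 29.3 CPM (median 27.7), a log2 fold change of 0.30 (FDR 0.000515). Both lay wholly above the controls, as did Sdf2l1, which made 3 genes of 10 without overlap, against 28.2% of all genes. Without library 1 of 5FU, its highest, Ddit3 had a log2 fold change of 0.21 and an FDR of 0.0117, so its call rested on that library. Xbp1 (log2 fold change -0.32, FDR 6.02e-05), Manf (-0.29, FDR 4.25e-05) and Creld2 (-0.26, FDR 0.000533) fell, each with groups that overlapped.

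The chaperone genes were not called at this time. Hspa5 ran from 626 to 986 CPM (median 677) against 685 to 911 CPM (median 806), with a log2 fold change of -0.16 (FDR 0.0611). Without library 1, whose level was far above the rest, the value was -0.27 and passed (FDR 0.000296). Hsp90b1 had a log2 fold change of 0.03, with a 95% interval from -0.08 to 0.14, Pdia4 one of -0.15 (FDR 0.0455) and Dnajb9 one of -0.02 (FDR 0.856). With library size in place of TMM, 1 gene rose and 5 fell, with Hspa5 (-0.24) and Pdia4 (-0.23) called and Ddit3 not.

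The 5FU effect at 24 hours was lower than that at 6 hours in 9 of the 10 genes by the test of the difference itself, where 39.5% of all genes were called, 20.3% higher and 19.2% lower. Sdf2l1 moved most, from a log2 fold change of 0.28 at 6 hours (FDR 0.031, not called) to -1.48 at 24 hours, a difference of -1.76 (SE 0.18, FDR 1.46e-12). Herpud1 went from above its control to below it, with a difference of -0.71 (FDR 2.31e-08). So did Ddit3, with -0.58 (FDR 4.39e-06), although its call at 6 hours rested on library 1 of 5FU. The mean of Ddit3 in 5FU was 34.04 CPM at 6 hours and 34.17 CPM at 24 hours. In DMSO1 it was 27.7 and 41.63 CPM. For Dnajb9 the means were 32.14 and 27.59 CPM in 5FU, and 32.58 and 50.72 CPM in DMSO1. The differences of Xbp1 (-0.87), Dnajb9 (-0.86), Hsp90b1 (-0.77), Hspa5 (-0.63), Manf (-0.50) and Pdia4 (-0.45) passed too. That of Creld2 was 0.01, with a 95% interval from -0.18 to 0.20.

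**Figure D3:**
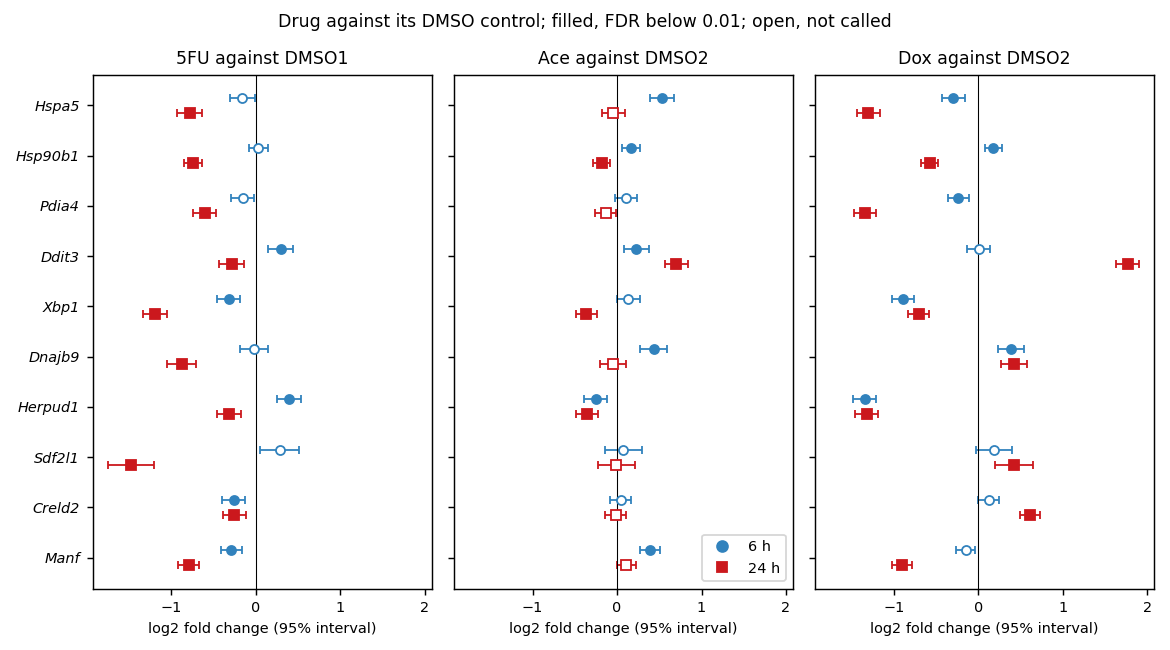
Log2 fold change of each gene against the DMSO control of its drug, with 95% intervals, at 6 hours (circles) and 24 hours (squares); filled symbols passed an FDR below 0.01. In 5FU all 24-hour values lie below 0, in Ace the largest is Ddit3 at 24 hours (0.70), and in Dox at 24 hours Ddit3 stands at 1.77 and Pdia4 at -1.34.

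Dox at 24 hours parted the list: Ddit3, Creld2, Dnajb9 and Sdf2l1 rose and the other 6 fell. All 10 were called, as were 81.4% of all genes (40.4% higher and 41% lower), and 9 did not overlap with DMSO2, as for 68.2% of all genes. The shares are thus near the background, and the description rests on the size and direction of each gene. The median log2 fold change of the 10 was -0.64.

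Ddit3 rose most. It ran from 116 to 144 CPM (median 118) in Dox and from 31.5 to 42.04 CPM (median 36.6) in DMSO2, a 3.40-fold rise (log2 fold change 1.77, SE 0.07, FDR 5.77e-34). Creld2 ran from 42.03 to 50.7 CPM (median 46.9) against 26.4 to 32.1 CPM (median 30.3), a rise of 53.2% (FDR 1.64e-14). Dnajb9 ran from 54.3 to 79.99 CPM (median 69.9) against 47.01 to 58.1 CPM (median 52.2), a rise of 34.4% (FDR 7.36e-07). Sdf2l1 ran from 19.3 to 23.3 CPM (median 20) against 12.98 to 19.02 CPM (median 14.8), a rise of 34.2% (FDR 0.000408). Library 7 of Dox lay within the range of the controls for Dnajb9, and for Sdf2l1 the lowest Dox library lay just above the highest control.

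Hspa5, Hsp90b1, Pdia4, Manf, Herpud1 and Xbp1 went the other way. Hspa5 ran from 317 to 370.4 CPM (median 337) against 772 to 896 CPM (median 834) and fell by 59.4% (log2 fold change -1.30, SE 0.07, FDR 2.31e-26). Pdia4 ran from 51.6 to 59.4 CPM (median 54.9) against 126 to 157 CPM (median 138) and fell by 60.5% (log2 fold change -1.34, FDR 9.15e-29). Both were lower than in any other of the 10 groups, without overlap. Herpud1 ran from 35.7 to 59.3 CPM (median 53.2) against 116 to 152 CPM (median 128) and fell by 59.96% (log2 fold change -1.32, FDR 1.99e-27). Library 7 of Dox was its lowest, at 35.67 CPM. Manf ran from 55.1 to 63.6 CPM (median 59.3) against 104 to 121 CPM (median 109) and fell by 46.5% (FDR 1.04e-22). Xbp1 ran from 45.6 to 50.9 against 71.3 to 85.2 CPM and fell by 38.7% (FDR 1.12e-15). Hsp90b1 ran from 330.5 to 370.5 against 487 to 568.2 CPM and fell by 32.9% (FDR 4.48e-16). Of the 4 genes with an ERSE in the windows above, Hspa5, Hsp90b1 and Xbp1 fell in Dox and Creld2 rose, whereas all 4 fell in 5FU. All 10 Dox calls held when any 1 library was left out.

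At 6 hours of Dox, Herpud1 and Xbp1 were already low. Herpud1 ran from 42.4 to 58.1 CPM (median 45.6) against 108 to 136 CPM (median 120.3) in DMSO2 and fell by 60.6% (log2 fold change -1.34, SE 0.07, FDR 7.5e-27). Xbp1 ran from 39.1 to 43.2 CPM (median 41.4) against 72.8 to 86.1 CPM (median 75.6) and fell by 46.1% (log2 fold change -0.89, FDR 3.01e-19). Hspa5 ran from 546 to 635 against 706 to 752 CPM (log2 fold change -0.30, FDR 9.98e-05). These 3 genes lay wholly below their controls, and Dnajb9 wholly above, which made 4 of 10, against 42.6% of all genes. Pdia4 fell by less, with groups that overlapped (log2 fold change -0.23, FDR 0.000705).

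Dnajb9 rose from a range of 26.7 to 32.4 to one of 33.5 to 44.6 CPM (log2 fold change 0.39, FDR 1.54e-05). Hsp90b1 rose by 0.18 on the log2 scale with TMM factors (FDR 0.00147), but with library size only its value was 0.03 (FDR 0.678), a scaling that put the median of all genes at -0.15. Ddit3 ran from 26.2 to 32.04 CPM (median 30.1) against 27.2 to 32.01 CPM (median 28.97), a log2 fold change of 0.00 with a 95% interval from -0.14 to 0.14. Manf (-0.15, FDR 0.0166), Sdf2l1 (0.18, FDR 0.119) and Creld2 (0.12, FDR 0.0636) did not pass. In all, 2 genes rose and 4 fell, where 64.2% of all genes were called, 31.5% higher and 32.7% lower; with library size only, 1 rose and 5 fell.

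Between 6 and 24 hours the Dox effect moved in 6 of the 10 genes, where 64.8% of all genes were called, 34% higher and 30.8% lower. The difference was 1.76 for Ddit3 (SE 0.10, FDR 5.16e-25) and 0.49 for Creld2 (FDR 6.9e-07), and it was negative for Pdia4 (-1.11), Hspa5 (-1.001), Manf (-0.76) and Hsp90b1 (-0.75). That of Herpud1 was 0.02, with an interval from -0.16 to 0.21, and that of Xbp1 0.19 (FDR 0.0631). With library size only, which moved the median of all genes to 0.266 in this contrast, 4 genes became higher, Xbp1 and Sdf2l1 among them, and 4 lower.

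Ace raised the mRNA of BiP at 6 hours. Hspa5 ran from 1010 to 1101 CPM (median 1047) against 706 to 752 CPM (median 727) in DMSO2, a rise of 44.6% (log2 fold change 0.53, SE 0.07, FDR 6.45e-09). Dnajb9 ran from 36.7 to 44.2 CPM (median 41.97) against 26.7 to 32.4 CPM (median 30.9), a rise of 35.1% (FDR 1.08e-05). Manf ran from 124 to 136 CPM (median 129) against 89.2 to 118 CPM (median 96.2), a rise of 30.7% (FDR 1.34e-07). All 3 lay wholly above their controls, as did Hsp90b1 by a small step, 4 of 10 against 24.5% of all genes without overlap.

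Ddit3 (log2 fold change 0.23, FDR 0.00675) and Hsp90b1 (0.16, FDR 0.0095) passed more narrowly, and Herpud1 fell (-0.25, FDR 0.00203). In all 5 genes rose and 1 fell, where 31.7% of all genes were called, 16.5% higher and 15.2% lower. The call of Ddit3 held in 6 and that of Hsp90b1 in 7 of the 13 fits that left out 1 library. Ddit3 lost it without library 3, 4, 5 or 6 of Ace or 3, 4 or 5 of DMSO2, and Hsp90b1 without library 4, 5 or 6 of Ace or 2, 4 or 7 of DMSO2. Without library 6 of Ace, Herpud1 was lost as well, and 3 calls were left, those of Hspa5, Dnajb9 and Manf. Ddit3 (FDR 0.0232) and Hsp90b1 (FDR 0.0462) were also lost with library size only.

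At 24 hours of Ace, Ddit3 was the 1 gene that rose, and 3 fell, where 37.2% of all genes were called, 18.2% higher and 19.1% lower. Ddit3 ran from 45.6 to 67.03 CPM (median 62.4) against 31.5 to 42.04 CPM (median 36.6), a rise of 62.5% (log2 fold change 0.70, SE 0.07, FDR 1.03e-13). Library 7 of Ace held the low end, and without it the log2 fold change was 0.76. Herpud1 ran from 87.4 to 108 CPM (median 104) against 116 to 152 CPM (median 128) and fell by 22.1% (FDR 4.81e-06). Ddit3 and Herpud1 did not overlap with their controls, 2 of 10 against 26.9% of all genes. Xbp1 ran from 55.02 to 71.6 against 71.3 to 85.2 CPM and fell by 22.2% (FDR 2.72e-06), with library 7 as the one within the range of the controls (log2 fold change -0.36, and -0.40 without it). Hsp90b1 fell by 11.8% (FDR 0.0024), a call lost without library 3 of Ace and with library size only (FDR 0.0462). The value of Hspa5, which was not called, moved from -0.05 to -0.08 without library 7. All 4 calls held without that library, as did those given below that use Ace at 24 hours.

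Hspa5 was no longer high at 24 hours of Ace. It ran from 699.9 to 915 CPM (median 827) against 772 to 896 CPM (median 834), a log2 fold change of -0.05 with an interval from -0.18 to 0.09. By the test of the difference, the Ace effect was lower at 24 than at 6 hours on Hspa5 (-0.58, FDR 7.68e-06), Xbp1 (-0.50, FDR 3.47e-05), Dnajb9 (-0.48, FDR 0.000946), Hsp90b1 (-0.35, FDR 0.000333) and Manf (-0.28, FDR 0.0091). That on Ddit3 was higher by 0.47 (FDR 0.000236). These were 6 calls, where 11.6% of all genes were called, 5.58% higher and 6.06% lower. The call of Manf held in 12 of 27 fits that left out 1 library. It was lost without library 1, 3 or 6 of Ace at 24 hours, 1, 4 or 5 of Ace at 6 hours, 1, 2, 4, 5 or 6 of DMSO2 at 24 hours or 3, 4, 5 or 6 of DMSO2 at 6 hours. With library size only, the calls of Hsp90b1 (FDR 0.0104) and Manf (FDR 0.0972) were lost.

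The controls give the background to these effects. DMSO1 and DMSO2 differed in 1 gene at 6 hours, Herpud1, which ran from 97.8 to 116 CPM in DMSO1 and from 108 to 136 in DMSO2 (log2 fold change -0.23, FDR 0.00774), where 16.5% of all genes were called, 9.87% higher and 6.60% lower. That call held in 4 of 13 fits that left out 1 library, and was lost without library 2, 3, 4, 5 or 6 of DMSO1 or 1, 4, 6 or 7 of DMSO2. At 24 hours edgeR called none of the 10 (3 had an unadjusted p below 0.05), and 0.433% of all genes (0.137% higher and 0.295% lower). Manf was nearest (-0.25, FDR 0.0128), and DESeq2 called it as its 1 gene (FDR 0.00513). Without library 1 of DMSO1, the lowest for Manf (69.24 CPM), edgeR gave a value of -0.17 (FDR 0.0982).

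From 6 to 24 hours in the controls, 3 genes rose and 1 fell, where 64.6% of all genes were called, 32.7% higher and 31.9% lower. Dnajb9 rose by 63.4% (FDR 2.14e-17), Ddit3 by 36.96% (FDR 3.94e-12) and Herpud1 by 13% (FDR 0.000889), and Sdf2l1 fell by 36.97% (FDR 7.08e-11). Without library 1 of DMSO1 at 24 hours Hspa5, Hsp90b1 and Pdia4 were called as well, with log2 fold changes of 0.17, 0.10 and 0.16, so that 7 genes were called.

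The drugs were set against each other through their own controls, or directly for Dox and Ace, which shared a DMSO level. At 24 hours all 10 genes differed between Dox and Ace, 4 higher and 6 lower, where 80.6% of all genes were called, 40.7% higher and 39.9% lower. Ddit3 was 2.10-fold higher in Dox, and Creld2, Dnajb9 and Sdf2l1 were higher too, while the log2 differences of Hspa5 (-1.25), Pdia4 (-1.21), Manf (-1.01) and Herpud1 (-0.96) were the most negative. The 5FU effect was below the Dox effect on Ddit3 (-2.05, SE 0.10, FDR 5.99e-28), Sdf2l1 (-1.90, FDR 2.86e-15), Dnajb9 (-1.30, FDR 3.42e-16), Creld2 (-0.87, FDR 2.13e-13) and Xbp1 (-0.48, FDR 7.84e-06). It was above the Dox effect on Herpud1 (1.01, FDR 1.57e-14), Pdia4 (0.74, FDR 1.54e-10) and Hspa5 (0.52, FDR 5.85e-06). That made 8 genes, where 71.1% of all genes were called, 35.4% higher and 35.8% lower. The other 2, Hsp90b1 (-0.17, interval -0.32 to -0.02) and Manf (0.11, interval -0.06 to 0.28), did not pass, but Hsp90b1 did without library 1 of DMSO1 at 24 hours (-0.24, FDR 0.000417). Against the Ace effect at 24 hours, that of 5FU was lower in 8 genes, where 37.3% of all genes were called, 18.2% higher and 19.1% lower. The exceptions were Herpud1 (0.05, interval -0.14 to 0.24) and Creld2 (-0.24, FDR 0.0261), and Creld2 passed without that same library (FDR 0.00567).

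At 6 hours the widest gap between drugs was that of Herpud1 between 5FU and Dox. The 5FU effect on it exceeded that of Dox by 1.74 on the log2 scale (SE 0.10, FDR 7e-24) and that of Ace by 0.64 (FDR 2.13e-07). In Dox against Ace, 6 genes were lower and none higher, with Herpud1 (-1.09, FDR 7.06e-22), Xbp1 (-1.03, FDR 2.75e-21) and Hspa5 (-0.83, FDR 2.69e-16) first, where 62.1% of all genes were called, 30.6% higher and 31.4% lower. The narrowest of the 6, Ddit3 (-0.23, FDR 0.00413), was lost without library 4 of Ace or 1 of Dox and with DESeq2 (FDR 0.0157). Between the effects of 5FU and Dox 4 genes differed, 2 in each direction, where 45.9% of all genes were called, 24% higher and 22% lower, or 3 higher and 1 lower with library size only. Between those of 5FU and Ace 6 differed, 1 higher and 5 lower, where 30.9% of all genes were called, 13.8% higher and 17.1% lower. Creld2, the narrowest of these (-0.30, FDR 0.00531), was lost without library 3 of 5FU, 5 of Ace, 4 of DMSO1 or 5 of DMSO2.

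The order of the group means shows which conditions set a gene apart. For Hspa5 the means ran from 1052 CPM (SD 41.4, n = 6) in Ace at 6 hours to 343 CPM (SD 19.9, n = 7) in Dox at 24 hours. Ace at 6 hours lay wholly above the next group, and so did Dox at 6 hours (592 CPM) and 5FU at 24 hours (480 CPM), while the other 6 groups, the 4 controls, Ace at 24 hours and 5FU at 6 hours, lay between 717 and 844 CPM and each overlapped with the next in order. For Ddit3, Dox at 24 hours (126 CPM, SD 11.4, n = 7) lay apart from the next, Ace at 24 hours (60.2 CPM, SD 7.33, n = 7), and each of the other neighbours overlapped, down to 27.7 CPM in DMSO1 at 6 hours. For Sdf2l1 the means ran from 28.5 CPM in 5FU at 6 hours to 5.26 CPM in 5FU at 24 hours, 5.42-fold apart. The low end lay apart from the next group. The high end (24.5 to 33.9 CPM) overlapped with Dox at 6 hours (25.9 to 30.2 CPM). The mean in DMSO1 was also lower at 24 hours (14.6 CPM) than at 6 hours (23.4 CPM). For Xbp1, 5FU at 24 hours (31.3 CPM), Dox at 6 hours (41.3) and Dox at 24 hours (47.9) formed the low end, each apart from the next. Library 1 of DMSO1 at 24 hours (46.37 CPM) nevertheless lay within the range of Dox at 24 hours (45.65 to 50.89 CPM). For Herpud1 the Dox groups (47.3 and 51.7 CPM) overlapped with each other and lay apart from the other 8.

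Over the 10 group means of log2 CPM, Hspa5 was most like Pdia4 (Pearson r = 0.948) and Manf (0.907) among the other 9 genes. Searched over 10508 genes with a mean count of at least 100, the genes most like Hspa5 were Prkdc (0.976), Mras (0.961), Tpcn2 (0.955), Zfp9 (0.953) and Pld2 (0.948). Those most like Ddit3 were Acad11 (0.961), Tpra1 (0.961), Pign, Rnf167 and Supt5h (each 0.946). These values are descriptions over 10 points that share controls, time and cell pool.

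The other genes of the pathway were written down as 5 lists by function, holding 94 genes, and 91 were measured. These lists too were chosen with earlier results of the data known. Their counts stand against the shares of all genes called, which at 24 hours were 55.8% in 5FU, 37.2% in Ace and 81.4% in Dox, and at 6 hours 47.9%, 31.7% and 64.2%. Of 9 sensors and their proteases, 2 rose and 5 fell in 5FU at 24 hours (77.8% called), 3 rose and 6 fell in Dox, a count of 9 of 9 where most genes were called, and 1 fell in Ace, a share of 11.1% and below that of all genes. Eif2ak3, which encodes PERK, had a log2 fold change of 0.62 in 5FU at 6 hours (FDR 2.16e-15) and of -0.28 at 24 hours (FDR 1.27e-05), and it rose in Dox at both times (0.53 and 0.27). Ern1, which encodes IRE1, rose by 0.58 in 5FU at 6 hours (FDR 2.45e-08) and was lower in 5FU (-0.27) and Dox (-0.30) at 24 hours. Atf6 rose in Dox at 24 hours (0.39, FDR 9.39e-09), whereas Creb3l1, a related factor known from matrix-secreting cells, fell in Dox (-1.09) and 5FU (-0.83). At 6 hours 2 rose and 3 fell in 5FU, 2 rose and 2 fell in Ace, and 3 rose and 5 fell in Dox.

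The genes of the PERK, ATF4 and CHOP branch, 12 of 13 measured, moved in both directions. In Dox at 24 hours 7 rose and 5 fell, or 58.3% and 41.7%, where 40.4% of all genes were higher and 41% lower. Ppp1r15a (2.27, FDR 6.29e-26) and Ppp1r15b (1.53, FDR 4.55e-37), which encode the phosphatase partners that undo the action of PERK, and Sesn2 (1.64, FDR 1.93e-25), a stress-induced regulator of nutrient signalling, rose together with Cebpb (0.86, FDR 0.00217), Cebpg (0.83), Asns (0.51) and Ero1a (0.48). Atf4 itself (-0.70, FDR 8.66e-11) and Nupr1 (-2.67), Atf5 (-1.85), Chac1 (-0.77) and Trib3 (-0.68) fell.

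In 5FU at 24 hours 3 rose, Sesn2 (0.80), Ero1a (0.63) and Ppp1r15b (0.22), and 6 fell, Chac1 (-1.63), Nupr1 (-1.19), Trib3 (-1.14), Atf5 (-1.10), Atf4 (-0.94) and Asns (-0.49). At 6 hours 4 rose and 3 fell in 5FU, 2 rose and 1 fell in Ace, and 4 rose and 5 fell in Dox, with Chac1 (-1.93), Trib3 (-1.78) and Atf4 (-1.42) already low in Dox. In Ace at 24 hours, where Ddit3 had risen, 1 of the 12 rose, Sesn2 (0.29, FDR 0.00657), and Nupr1 (-0.99) and Atf5 (-0.32) fell, while the value of Atf4 was -0.25 (FDR 0.0147). The 12 genes had 75% called in 5FU and 25% in Ace at 24 hours.

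Of 27 measured chaperones, isomerases and co-chaperones of the ER lumen outside the 10 genes, 21 fell and 4 rose in 5FU at 24 hours, and 20 fell and 4 rose in Dox. The falls made up 77.8% in 5FU and 74.1% in Dox, where 27.8% and 41% of all genes were lower. The largest falls in 5FU were those of the disulfide isomerase Pdia5 (-1.64) and the oxidase Ero1b (-0.95), and the largest rises those of Fkbp11 (0.50) and Dnajc10 (0.35). In Dox Fkbp2 (-2.17) and Selenom (-1.87) fell most, and Uggt1 (0.93), the folding sensor of glycoproteins, and Fkbp11 (0.62) rose most. In Ace at 24 hours 3 rose, Sil1 (0.52), Dnajc10 (0.26) and Sdf2 (0.22), and 8 fell, with Selenom (-0.42) and Fkbp14 (-0.41) first.

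At 6 hours fewer of these 27 passed, 37% in 5FU, 18.5% in Ace and 48.1% in Dox, each below the share of all genes. In 5FU 6 rose, with Txndc11 (0.54) first, and 4 fell, with Ero1b (-0.88) and Pdia5 (-0.84) first. In Ace 4 rose, with Ero1b (0.42) and Sil1 (0.29) first, and Fkbp14 (-0.26) fell. In Dox 8 rose, with Uggt1 (0.39) and Dnajb11 (0.38) first, and 5 fell, with Pdia5 (-0.95) and Cdnf (-0.40) first. The median log2 fold change of this list at 24 hours was -0.44 in 5FU and -0.59 in Dox, where that of the 10 genes was -0.76 and -0.64.

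Of the 22 genes of ER-associated degradation, 54.5% rose in 5FU at 24 hours, where 28% of all genes were higher, and 45.5% rose in Dox, near the 40.4% of all genes. Those called in either direction were 72.7% in Dox, below the share of all genes. In 5FU 12 rose, with Nploc4 (0.72) and Ufd1 (0.68) first, partners of the segregase that pulls proteins out of the ER membrane, and 3 fell, Selenos (-0.73), Sel1l (-0.45) and Edem2 (-0.26). In Dox at 24 hours 10 rose, with Derl3 (1.77) and Edem1 (1.23) first, and 6 fell, with Ube2j1 (-1.26) and Erlec1 (-0.96) first. In Ace at 24 hours 7 rose, with Aup1 (0.28) and Edem3 (0.24) first, and none fell. At 6 hours 13 rose and 3 fell in 5FU, 9 rose and 3 fell in Dox, and 5 rose and 1 fell in Ace. Herpud1, the gene of this pathway among the 10, fell in all 3 drugs at 24 hours.

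Of 21 measured genes of translocation into and export from the ER, 14 fell and 5 rose in Dox at 24 hours, 10 fell and 5 rose in 5FU, and 9 fell in Ace. The falls were 66.7%, 47.6% and 42.9%, where 41%, 27.8% and 19.1% of all genes were lower. Sec24d (-2.09), a coat subunit used for large cargo, and Sec61b (-1.35), a subunit of the translocation channel, fell most in Dox, and Sec61g (0.94) and Ssr4 (0.77) rose most. In 5FU Ssr3 (-0.76) and Sec61b (-0.75) fell most, and Spcs1 (0.51) and Sec62 (0.35) rose most. In Ace the largest falls were those of Sec61b and Sec24d (each -0.34). At 6 hours 3 rose and 9 fell in 5FU, 1 rose and 2 fell in Ace, and 9 rose and 6 fell in Dox.

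**Figure D4:**
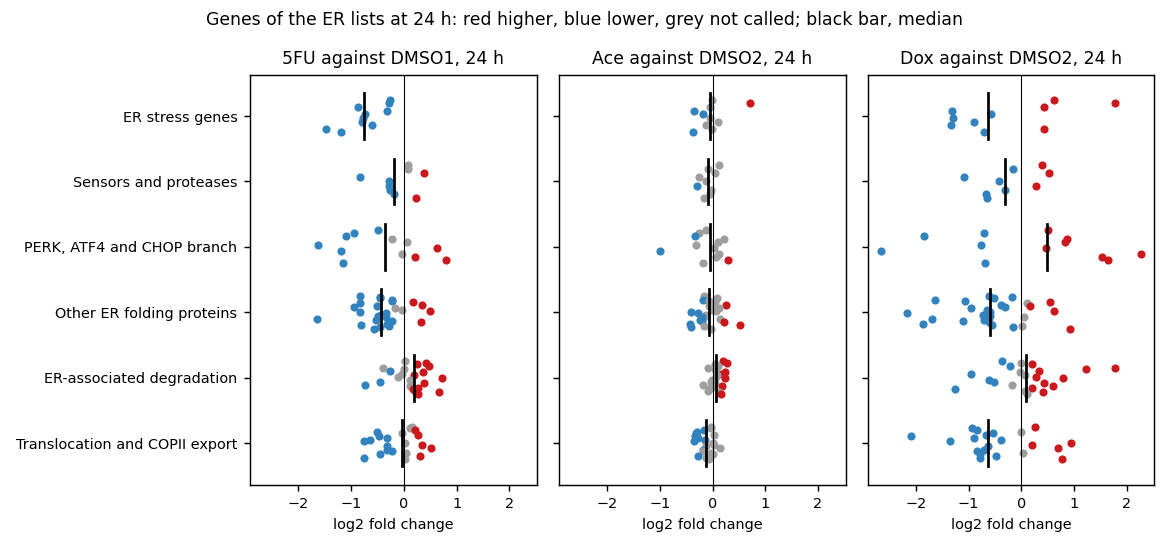
Log2 fold change at 24 hours of each measured gene of the 10 and of the 5 other lists (points; red higher, blue lower, grey not called at an FDR below 0.01), with the median of each list (black bar). In 5FU all 10 genes lie below 0, and in Dox the PERK branch runs from -2.67 to 2.27.

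Markers of the cell types moved in the same comparisons. Lower at 24 hours were 27.8% of all genes in 5FU, 19.1% in Ace and 41% in Dox. Higher were 28%, 18.2% and 40.4%. Fibroblast markers, 10 of 10 measured and none under 1 CPM throughout a group, fell in 10 of 10 in 5FU at 24 hours and in 9 of 10 in Ace and in Dox. Their summed level at 24 hours ran from 5234 to 5897 CPM in 5FU and from 10070 to 20010 in DMSO1, and from 7336 to 9367 in Ace, 1969 to 4158 in Dox and 15230 to 19020 in DMSO2. Cardiomyocyte markers fell in 5 of 9 in 5FU at 24 hours, with 1, Tnni3, higher (0.30, FDR 0.000571), and in 7 of 9 in Dox. Their sums were 27960 to 29870 CPM in 5FU, 37870 to 42200 in DMSO1, 16070 to 21980 in Dox and 37630 to 47620 in DMSO2. In Ace 3 fell and 1, Myl2, rose (0.33, FDR 9.26e-05). Endothelial markers, 7 of 8 measured, fell in 6 of 7 in 5FU, 5 in Ace and 7 in Dox. They summed to 127.9 to 155.1 CPM in 5FU, 194.8 to 278.1 in DMSO1, 20.98 to 46.28 in Dox and 257 to 338.9 in DMSO2, and 1 of them, Cldn5, was under 1 CPM in all Dox libraries. Macrophage markers, 8 of 8 measured, fell in 3 in 5FU, 5 in Ace and 7 in Dox, where they summed to 24.75 to 35.71 CPM against 63.6 to 83.62 in DMSO2, with Cd163 under 1 CPM in every library.

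Smooth muscle markers rose in Dox at 24 hours, where no gene of the other 4 marker lists was called higher. The share of all genes called higher there was 40.4%. Of 5, all measured, 4 rose, Cnn1 (3.05, FDR 5.29e-18), Myh11 (2.69, FDR 1.39e-31), Tagln (1.75, FDR 3.28e-08) and Smtn (0.36, FDR 3.09e-07), and the value of Acta2 was -0.05 (FDR 0.869). Their mean sum was 1383 CPM (range 521.5 to 1727) in Dox and 648.1 (551.5 to 734.3) in DMSO2, with ranges that overlapped. In 5FU at 24 hours they split, with Myh11 (1.48) and Cnn1 (1.41) higher and Acta2 (-1.36), Tagln (-0.91) and Smtn (-0.41) lower, and in Ace 3 were lower and none higher.

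The markers also moved at 6 hours. Lower at this time were 24.5% of all genes in 5FU, 15.2% in Ace and 32.7% in Dox, and higher 23.4%, 16.5% and 31.5%. Fibroblast markers fell in 6 of 10 in Ace and in Dox, where Fbln2 rose (0.29, FDR 0.00344), and in 2 of 10 in 5FU. Endothelial markers fell in 7 of 7 in Dox, with mean sums of 92.79 CPM against 245.7 in DMSO2, and in 3 of 7 in 5FU and in Ace. Smooth muscle markers rose in 4 of 5 in Dox, with a mean sum of 2661 CPM (range 1106 to 3270) against 931.8 (816.9 to 1202), and Smtn fell (-0.57). In 5FU 1 of these rose and 1 fell, and in Ace none was called. Cardiomyocyte markers rose in 5 and fell in 3 of 9 in Dox, rose in 2 and fell in 1 in 5FU, and fell in 1 in Ace. Macrophage markers rose in 3 and fell in 2 of 8 in Dox, and fell in 2 in 5FU and 1 in Ace. The controls differed at this time too, with 9.87% of all genes higher and 6.60% lower in DMSO1 than in DMSO2. In DMSO1 against DMSO2, 8 of 10 fibroblast and 5 of 7 endothelial markers were lower, 4 of 9 cardiomyocyte markers were higher and 1 lower, and 3 of 5 smooth muscle markers were higher, with a mean sum of 2726 CPM (range 984.4 to 4251). The part of these shifts in the changes of the ER stress genes was not tested.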

How the data were processed

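The authors aligned the reads to transcripts with kallisto, summed them to genes with tximport and dropped genes with few counts, and the deposited table holds these expected counts (estimated counts) per gene and library. The counts were used as deposited, and genes with at least 10 in 1 library were kept, which removed none. Symbols were matched for 14009 of 14554 genes. All 65 libraries entered 1 model with 10 groups in edgeR 4.0.16 (TMM factors, quasi-likelihood test, limma 3.58.1, R 4.3.3), with 18 contrasts and Benjamini-Hochberg adjustment over all genes. An FDR below 0.01 was a call. Alternatives were DESeq2 1.42.0, other scalings, filters and thresholds, a fit of the compared groups only, and leaving out single libraries. Leaving out library 1 of DMSO1 at 24 hours together with library 1 of 5FU at 6 hours was chosen after seeing the data.

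The 10 genes and all lists were chosen with earlier results of these data known. All 10 are named, any gene of the sensor and PERK lists, from each other list the 2 called genes of largest increase and the 2 of largest decrease in a drug comparison, and the 5 genes most like Hspa5 and Ddit3. Sdf2 and Edem2 were named after their values were seen. The fitting steps were tested on simulated data. Promoter windows came from RefSeq tables for GRCr8. The proteins were not analysed here.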

Additional observations from a re-analysis of the deposited data

Results flagged for a closer look

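In 15 of the 100 sets of a gene and a group, the highest or lowest library lay far from all others of its group. For a single set chance gives about 1 in 20, but the sets share libraries and are not independent. The count of 15 can thus not be weighed against that rate. Library 1 of 5FU at 6 hours stood apart in Hspa5 (highest, 985.8 CPM), Ddit3 (highest, 44.03 CPM) and Manf (highest, 91.64 CPM). Library 1 of DMSO1 at 24 hours stood apart in Hspa5 (lowest, 610 CPM), Hsp90b1 (lowest, 373.6 CPM), Pdia4 (lowest, 91.49 CPM), Xbp1 (lowest, 46.37 CPM), Herpud1 (lowest, 109.4 CPM) and Manf (lowest, 69.24 CPM). Library 7 of Ace at 24 hours stood apart in Xbp1 (highest, 71.62 CPM). Library 6 of 5FU at 6 hours stood apart in Herpud1 (lowest, 123.7 CPM). Library 1 of DMSO1 at 6 hours stood apart in Herpud1 (highest, 115.6 CPM). Library 7 of Dox at 24 hours stood apart in Herpud1 (lowest, 35.67 CPM). Library 4 of Dox at 6 hours stood apart in Herpud1 (highest, 58.1 CPM). Library 2 of 5FU at 6 hours stood apart in Creld2 (highest, 28.34 CPM). The label of each library was kept as given, and the reason for these gaps was not tested.

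For 21 pairs of a gene and a drug, the effect at 24 hours differed from that at 6 hours by the test of the difference in log2 fold change, which is given as 24 hours minus 6 hours. For 5FU these were Hspa5 (-0.63), Hsp90b1 (-0.77), Pdia4 (-0.45), Ddit3 (-0.58), Xbp1 (-0.87), Dnajb9 (-0.86), Herpud1 (-0.71), Sdf2l1 (-1.76) and Manf (-0.50). For Ace these were Hspa5 (-0.58), Hsp90b1 (-0.35), Ddit3 (0.47), Xbp1 (-0.50), Dnajb9 (-0.48) and Manf (-0.28). For Dox these were Hspa5 (-1.001), Hsp90b1 (-0.75), Pdia4 (-1.11), Ddit3 (1.76), Creld2 (0.49) and Manf (-0.76). Of all genes, 39.5% were called by this test for 5FU, 11.6% for Ace and 64.8% for Dox. Both effects of a drug were measured in separate wells with separate controls of the same cell pool.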

How the results depend on the processing

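No paired analysis was possible because the columns carry no replicate numbers. The number of the 10 genes called moved most with the threshold. With a log2 fold change of at least 1 in size as well as an FDR below 0.01, the count was 0 in 5FU at 6 hours, Ace at 6 hours, Ace at 24 hours, DMSO1 against DMSO2 at 6 hours, the controls over time, the Ace effect over time and the 5FU against the Ace effect at 6 hours, 1 in Dox at 6 hours, the 5FU effect over time, the 5FU against the Dox effect at 6 hours and the 5FU against the Ace effect at 24 hours, 2 in 5FU at 24 hours and Dox against Ace at 6 hours, 3 in the Dox effect over time and 4 in Dox at 24 hours, Dox against Ace at 24 hours and the 5FU against the Dox effect at 24 hours. At an FDR below 0.1 it was 1 in DMSO1 against DMSO2 at 24 hours, 2 in DMSO1 against DMSO2 at 6 hours, 7 in the controls over time and 8 in 5FU at 6 hours. Beyond these, the count was 2 in DMSO1 against DMSO2 at 6 hours with library size only, 2 in DMSO1 against DMSO2 at 6 hours in a fit of the compared groups only, and 1 in DMSO1 against DMSO2 at 24 hours with DESeq2. When single libraries were left out, the count ran from 0 to 1 in DMSO1 against DMSO2 at 24 hours and DMSO1 against DMSO2 at 6 hours, 3 to 4 in Ace at 24 hours, 3 to 6 in Ace at 6 hours, 4 to 5 in the 5FU against the Dox effect at 6 hours, 4 to 7 in the controls over time, 5 to 6 in the Ace effect over time and Dox against Ace at 6 hours, 5 to 7 in the 5FU against the Ace effect at 6 hours, 6 to 7 in Dox at 6 hours and 8 to 9 in the 5FU against the Ace effect at 24 hours and the 5FU against the Dox effect at 24 hours, and it was steady at 5 in 5FU at 6 hours, 6 in the Dox effect over time, 9 in the 5FU effect over time and 10 in 5FU at 24 hours, Dox against Ace at 24 hours and Dox at 24 hours. DESeq2 size factors, filterByExpr and no filter kept each count within 1.5 times of that reported.

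Signs of small values turned under some settings, and in each case where the gene was not called before or after. With library size only these were Hsp90b1 (-0.043) in 5FU at 6 hours, Hspa5 (0.010), Dnajb9 (0.0099), Sdf2l1 (0.053) and Creld2 (0.040) in Ace at 24 hours, Ddit3 (-0.15) and Creld2 (-0.031) in Dox at 6 hours, Hsp90b1 (-0.065) and Manf (-0.020) in DMSO1 against DMSO2 at 6 hours, Hspa5 (0.017) and Dnajb9 (0.0042) in DMSO1 against DMSO2 at 24 hours, Sdf2l1 (0.0084) and Creld2 (0.031) in the Ace effect over time, Hsp90b1 (-0.11), Sdf2l1 (-0.015) and Creld2 (-0.041) in Dox against Ace at 6 hours and Herpud1 (-0.017) in the 5FU against the Ace effect at 24 hours. Sign changes under the other settings came to Sdf2l1 (0.00024) in Ace at 24 hours and Manf (-0.014) in the controls over time with filterByExpr, Manf (-0.014) in the controls over time and Creld2 (-0.0061) in the 5FU effect over time in a fit of the compared groups, Creld2 (-0.0013) in the 5FU effect over time with DESeq2 size factors in edgeR, and Creld2 (-0.00037) in the 5FU effect over time with the DESeq2 test. With library 1 of DMSO1 at 24 hours and library 1 of 5FU at 6 hours left out together, the values that turned were Hspa5 (0.051), Hsp90b1 (0.024), Dnajb9 (0.020) and Sdf2l1 (0.086) in DMSO1 against DMSO2 at 24 hours, Creld2 (-0.039) in the 5FU effect over time and Ddit3 (-0.012) in the 5FU against the Ace effect at 6 hours, and with single libraries left out the values ran over 0 for Manf (-0.027 to 0.040) in the controls over time, Dnajb9 (-0.100 to 0.053) in 5FU at 6 hours, Creld2 (-0.040 to 0.060) in the 5FU effect over time, Ddit3 (-0.027 to 0.097) in the 5FU against the Ace effect at 6 hours, Creld2 (-0.047 to 0.027) and Sdf2l1 (-0.055 to 0.051) in Ace at 24 hours, Creld2 (-0.017 to 0.061), Dnajb9 (-0.068 to 0.010), Hsp90b1 (-0.081 to 0.015), Hspa5 (-0.053 to 0.041) and Sdf2l1 (-0.16 to 0.076) in DMSO1 against DMSO2 at 24 hours, Hsp90b1 (-0.0013 to 0.044) and Sdf2l1 (-0.076 to 0.015) in DMSO1 against DMSO2 at 6 hours, Hsp90b1 (-0.018 to 0.033) in Dox against Ace at 6 hours, Ddit3 (-0.018 to 0.033) in Dox at 6 hours and Herpud1 (-0.014 to 0.12) in the Dox effect over time. The cause was not tested.

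Library size only moved the median log2 fold change of all genes to -0.15 in Dox at 6 hours, 0.266 in the Dox effect over time and -0.108 in Dox against Ace at 6 hours. Standard errors on the log2 scale were widest for Sdf2l1, the gene with the fewest counts, at up to 0.14 against a DMSO control and up to 0.18 for a difference of effects, and its log2 fold changes of 0.28 in 5FU and 0.18 in Dox at 6 hours did not pass.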
